A study of Pyrus hybrid rootstock with 24 samples.

Results

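The comparison described here set graft unions of heterografts against those of homografts at 9 days after grafting (DAG), the stage at which the study placed cambium differentiation. Its members were chosen by the deposited graft type and day, which gave 6 libraries of the 24 in the series. The heterografts (DCD, 3 libraries) were QAUP-1 scions on “Qingzhen D1” rootstocks. The homografts (SCD, 3 libraries) were “Qingzhen D1” scions on “Qingzhen D1” rootstocks. This order of partners was taken from the sample titles and the methods, while the design text of the series names the heterograft in the reverse order. The grouping of the libraries is the same with either order. “Qingzhen D1” is a hybrid of Pyrus communis and Pyrus bretschneideri, and QAUP-1 is Pyrus ussuriensis. All were micro-grafted plantlets held by silicon tubing and grown in tissue culture on a medium that contained the cytokinin 6-BA and the auxin IBA, also for the homografts. The graft unions were sampled as stem, so scion RNA and rootstock RNA were not separated, and a heterograft differed from a homograft both in its graft type and in the species of 1 partner, by the titles the scion. These 2 differences cannot be told apart in this comparison, and reads of both graft types were aligned to P. bretschneideri. The files give gene identifiers without names, so the tissue could not be checked against marker genes.

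After grafting, cut stems seal the wound, form callus, and then differentiate cambium that joins the xylem and phloem of both partners. Auxin moving down from the scion is known to drive vascular differentiation, and cytokinin is known to promote cell division in callus and cambium. Beta-glucosidases remove glucose from many substrates, among them cellobiose from cell walls, precursors of lignin, and stored hormone conjugates.

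The libraries of DCD held 10373751 to 12599243 reads on genes and those of SCD 11958383 to 13629999. The unit was FPKM, a read count scaled by gene length and library size. Tested genes had to reach an FPKM of 1 in 3 or more of the 6 libraries, which kept 24787 of 42812 genes. One library stood apart. On log2(FPKM + 1) over the tested genes, DCD replicate 1 correlated with DCD replicates 2 and 3 at r = 0.966 and 0.969. Replicates 2 and 3 of DCD correlated at 0.980, the SCD pairs at 0.977 to 0.981, and the pairs of a DCD with an SCD library at 0.972 to 0.979. DCD replicate 1 was thus less like the other DCD libraries than any DCD library was like any SCD library. The 3 pairs of libraries with the same replicate number in both graft types gave the highest r among the pairs of different graft type, from 0.977 to 0.979. These values describe the libraries and were not tested. Values without DCD replicate 1 are given where they changed a call, a direction, or a count by over 1.5 times, and for the named hormone genes that moved most.

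PbBglu13 (Pbr042200.2), the beta-glucosidase gene named by the study, was higher in heterografts at 9 days. Its FPKM was 8.82, 7.11, and 8.95 in the DCD libraries and 0.764, 1.64, and 0.653 in the SCD libraries. Every DCD library was above every SCD library, and the lowest DCD value was several times the highest SCD value. The mean was 8.30 ± 1.03 in DCD and 1.02 ± 0.538 in SCD (SD, n = 3 each). The log2 fold change on the log2(FPKM + 1) scale was 2.23 (SE 0.52, 95% interval 1.14 to 3.32), which passed the thresholds of the study (absolute log2 fold change above 1 and unadjusted p below 0.05). The limma adjusted p over all tested genes was 0.282. With the replicate number as a block it was 0.161 on all days and 0.321 on the 9-day libraries alone. The study chose this gene on these libraries, so its call is not independent evidence. In bulk graft unions, more cells that express a gene and more RNA per cell cannot be told apart.

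The difference in PbBglu13 was in the same direction on the other days. Its log2 fold change was 3.11 at 1 DAG, 1.86 at 5 DAG, and 1.83 at 30 DAG, with limma adjusted p values of 0.000365, 0.121, and 0.352. At 5 DAG the FPKM was 10.8, 3.16, and 9.20 in DCF, the heterografts of that day, and 1.18, 1.90, and 0.637 in SCF, the homografts. The groups did not overlap on that day either. A change of the difference between 5 and 9 DAG was not detected (interaction log2 value 0.37, limma adjusted p = 0.901).

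**Figure D1:**
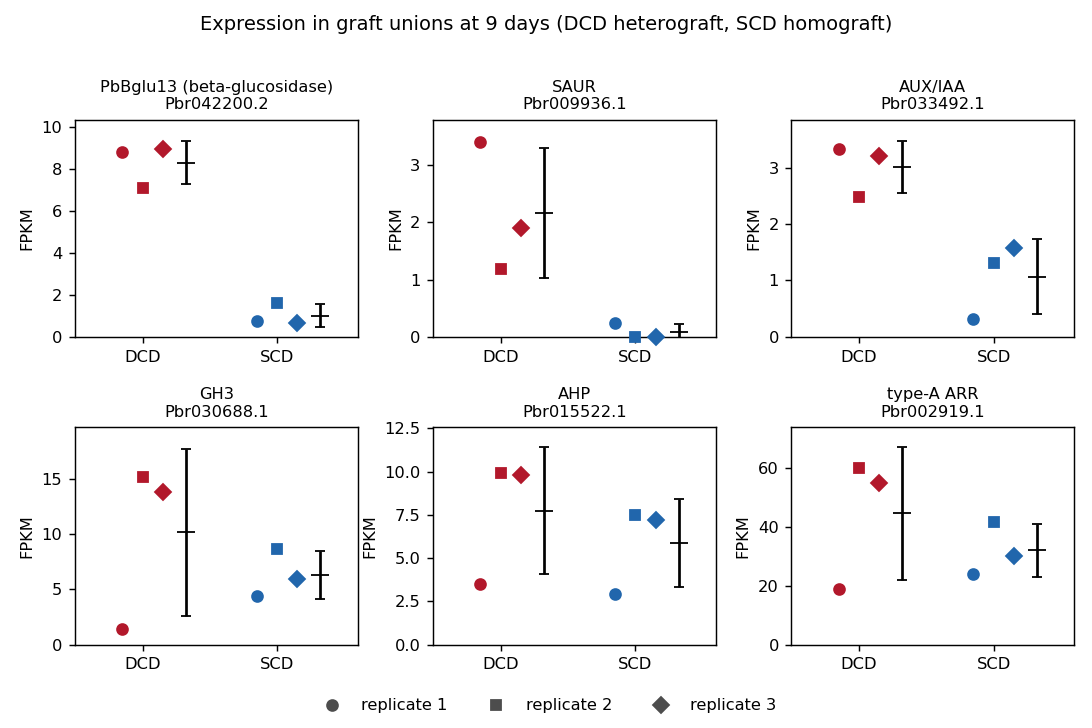
FPKM (vertical axis, linear, from 0) in each of the 3 DCD and 3 SCD libraries at 9 days for 6 genes, with the mean ± SD to the right of the points and the replicate number by marker shape. DCD and SCD were separate for PbBglu13, SAUR Pbr009936.1, and AUX/IAA, whereas replicate 1 was the lowest library of both graft types for GH3 Pbr030688.1, AHP, and type-A ARR Pbr002919.1.

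The study labels 12 auxin genes, of which 10 passed the filter on low values at 9 days. The list was chosen by the study on these libraries, and its identifiers were read from a heat map. In DCD vs. SCD, 2 of the 10 were called as higher and 0 as lower, whereas 0.468% of all tested genes were called. Of all tested genes, 0.307% were called as higher and 0.161% as lower. The 10 genes comprised 8 with a positive and 2 with a negative log2 fold change. Their median was 0.34, and that of all tested genes was 0.02. The libraries of DCD and SCD did not overlap for 4 of the 10 genes, compared with 9.6% of all tested genes.

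AUX1 genes encode influx carriers that bring auxin into the cell. For AUX1 Pbr033508.2, the FPKM was 13.3, 12.05, and 24.5 in DCD and 10.6, 12.4, and 20.0 in SCD. Both groups overlapped and were highest in replicate 3, and the log2 fold change was 0.18 (95% interval -0.44 to 0.80) and -0.12 without DCD replicate 3. The other AUX1 gene, Pbr029742.1, averaged 0.833 ± 0.404 FPKM in DCD and 0.754 ± 0.578 in SCD and did not pass the filter.

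AUX/IAA proteins repress auxin response until auxin causes their breakdown, and their genes are themselves induced by auxin. The AUX/IAA gene Pbr033492.1 had an FPKM of 3.34, 2.48, and 3.21 in DCD and of 0.319, 1.31, and 1.58 in SCD. The groups did not overlap, and SCD replicate 1 was the lowest library. The gene was called at 1.01 on the log2 scale (SE 0.46, limma adjusted p = 0.868), just over the threshold. With the replicate number as a block on the 9-day libraries alone, the call was kept (limma unadjusted p = 0.0473, adjusted p = 0.827). It was lost with the block on all days, when its unadjusted p passed 0.05 (limma adjusted p = 0.850). The call was also lost when SCD replicate 1 (0.71), DCD replicate 1 (0.95), or DCD replicate 3 (0.97) was left out.

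GH3 enzymes conjugate auxin to amino acids and so lower free auxin. For GH3 Pbr030688.1, the FPKM was 1.43, 15.2, and 13.9 in DCD and 4.39, 8.69, and 5.91 in SCD. The DCD libraries spanned those of SCD, with DCD replicate 1 below and replicates 2 and 3 above all of them. Its log2 fold change was 0.23 (95% interval -0.79 to 1.26). The direction rested on single libraries, since leaving out DCD replicate 1 gave 1.13, a call, leaving out DCD replicate 2 gave -0.24, and leaving out DCD replicate 3 gave -0.18. The GH3 gene Pbr007550.1 was low in all 6 libraries, at 1.05, 1.70, and 1.23 in DCD and 0.772, 1.04, and 0.833 in SCD. Its groups lay next to each other without overlap, and its log2 fold change of 0.30 was not called.

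SAUR genes are small auxin-responsive genes, many of which promote cell expansion. SAUR Pbr009936.1 had an FPKM of 3.41, 1.19, and 1.91 in DCD and of 0.242, 0, and 0 in SCD. It was detected in every DCD library and in a single SCD library. In reads recovered from FPKM, 23 were found in DCD and 1 in SCD, a ratio of 26.2 (95% counting interval 4.26 to 1080). Counting intervals cover counting error only and not the spread between grafts. The log2 fold change was 1.499 (SE 0.32, limma adjusted p = 0.199), and the gene was called. It passed the filter only through DCD, which favors the call.

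The other SAUR genes were not called. Pbr040904.2 came nearest, at 1.97, 4.15, and 1.37 in DCD and 0.520, 1.07, and 0.890 in SCD, with a log2 fold change of 0.87 that became 1.11 and was called without DCD replicate 3. Its groups did not overlap. Of the remaining SAUR genes, Pbr023262.1 and Pbr042214.1 had log2 fold changes of 0.58 and 0.39 (0.94 and 0.86 without DCD replicate 1, not called), and Pbr010681.1 and Pbr018494.1 of -0.24 and -0.30, all with intervals that include 0. Pbr023263.2 did not pass the filter, with 4 reads in DCD and 1 in SCD.

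Cytokinin signaling passes a phosphate from receptors through AHP proteins to type-B ARR factors, which activate target genes. Type-A ARR genes are among these targets and dampen the signal. All 5 cytokinin genes labelled by the study passed the filter, and 0 of 5 were called in either direction by limma at 9 days, where 0.468% of all tested genes were. With so low a share, 0 of 5 says little about these genes. At an unadjusted p below 0.05 without the fold threshold the count was also 0, and voom on recovered reads called 0. The median log2 fold change of the list was 0.23, with 4 positive values and 1 negative value.

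The AHP gene Pbr015522.1 had an FPKM of 3.50, 9.94, and 9.79 in DCD and of 2.92, 7.49, and 7.20 in SCD. Replicate 1 was low in both graft types, and within each replicate number the DCD library was the higher one. The log2 fold change was 0.32 (95% interval -0.59 to 1.23), 0.74 without DCD replicate 1, and -0.04 without SCD replicate 1.

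The type-B ARR gene Pbr012127.1 was the most abundant gene of the list, at 49.7, 55.7, and 60.9 FPKM in DCD and 59.0, 54.4, and 63.1 in SCD. The groups overlapped, and its interval was the narrowest of the list, with a log2 fold change of -0.09 (95% interval -0.28 to 0.10).

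Among the type-A ARR genes, Pbr002919.1 had an FPKM of 18.7, 60.2, and 55.1 in DCD and of 24.1, 41.8, and 30.2 in SCD. As for GH3 Pbr030688.1, DCD replicate 1 was below and replicates 2 and 3 were above all SCD libraries. Its log2 fold change was 0.34 (95% interval -0.50 to 1.18). The size rested on single libraries, since leaving out DCD replicate 1 gave 0.86, and leaving out DCD replicate 2 or 3 gave 0.04 or 0.11, none of them called. The log2 fold change was 0.23 (-0.19 to 0.64) for Pbr024916.1 and 0.00 (-0.61 to 0.61) for Pbr009193.1, whose sign changed with either scaling and without any of 4 of the 6 libraries. Pbr009193.1 averaged 46.5 ± 8.92 FPKM in DCD and 46.9 ± 12.03 in SCD.

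**Figure D2:**
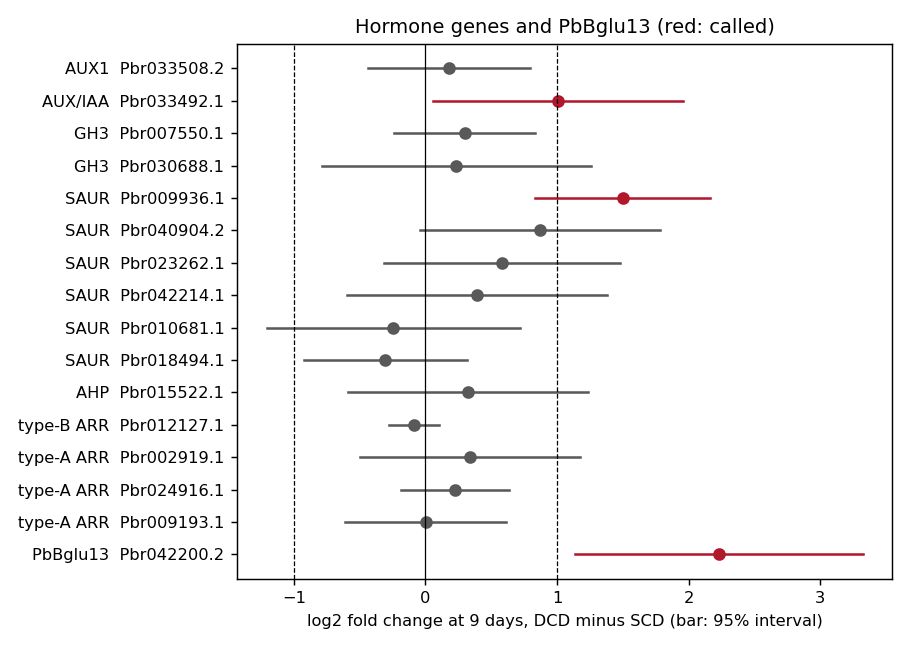
Log2 fold change at 9 days (DCD minus SCD, horizontal axis) of the hormone genes that passed the filter and of PbBglu13, with the 95% interval from limma as a bar, the fold thresholds as dashed lines, and called genes in red. The intervals of the 5 cytokinin genes include 0, and the type-B ARR gene, at -0.09, has the narrowest one.

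The 15 genes that the study picked for qPCR all passed the filter, and 0 were called in DCD vs. SCD by limma, where 0.468% of all tested genes were. With so low a share, 0 of 15 says little about these genes. Their log2 fold changes ranged from -0.32 to 0.36, with 6 positive and 9 negative values, and DCD and SCD overlapped for each of them, against 9.6% of all tested genes without overlap. At an unadjusted p below 0.05 the count was 0 in limma, and voom called 0 of them.

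Over all tested genes, 116 were called as differentially expressed genes (DEGs) at 9 days, of which 76 were higher and 40 lower in heterografts. The genes higher in DCD included many that were barely expressed in homografts. The median of their mean FPKM was 5.47 in DCD and 1.20 in SCD, and 34 of the 76 had a mean below 1 in SCD. Only 21 had a mean of at least 10 in DCD. The genes lower in DCD had a median of 0.976 in DCD and 4.01 in SCD, and 21 of the 40 had a mean below 1 in DCD. Libraries of DCD and SCD did not overlap for 64 of the 76 genes and for 32 of the 40, compared with 9.6% of all tested genes. These levels and the lack of overlap are what the call selected on the same libraries, and are given as a description. Of the 68 genes that passed the filter only through DCD, 23 were called, and of the 32 that passed only through SCD, 8 were called. Of all tested genes, 0.468% were called. Genes that passed only through DCD had every DCD library at an FPKM of 1 or more and every SCD library below it. The reverse held for those that passed only through SCD. This separation, set by the filter, favors a call, so these counts are a description and not a result about these genes. Without DCD replicate 1 there were 202 DEGs, 148 of them higher, and 66 of the original 116 were among them. Without DCD replicate 3 there were 49 higher genes.

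The most abundant called gene, chosen after its values were seen, had an FPKM of 395.5, 300.0, and 561.4 in DCD and of 156.9, 159.4, and 218.0 in SCD. Its groups did not overlap, and its log2 fold change was 1.20 (limma adjusted p = 0.245). The lowest log2 fold change, -2.95, belonged to a gene at 1.26, 1.91, and 0.510 FPKM in DCD and 36.1, 64.6, and 0.885 in SCD. SCD replicate 3 was as low as the DCD libraries, so the groups overlapped (limma adjusted p = 0.679).

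**Figure D3:**
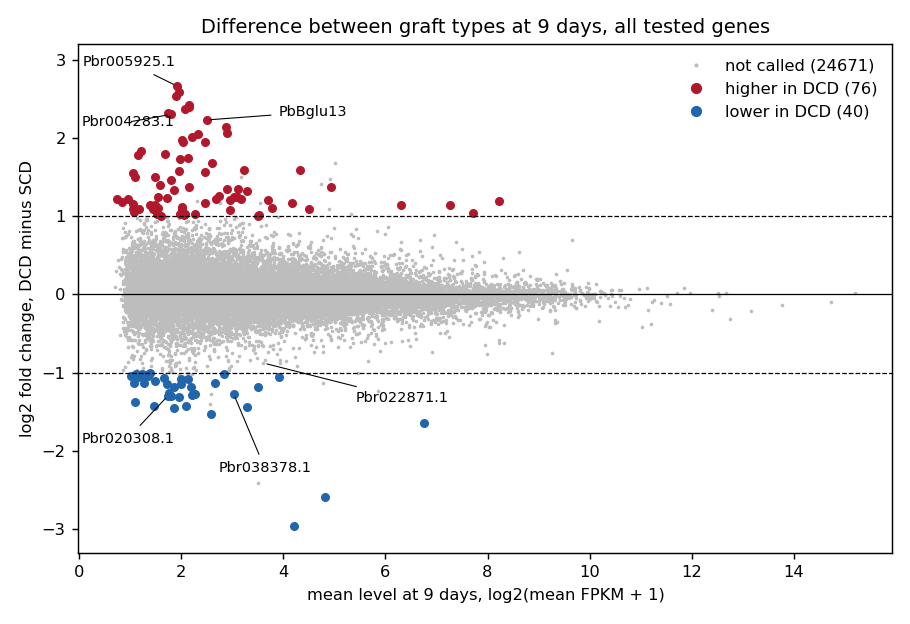
Log2 fold change (DCD minus SCD, vertical axis) against the mean level at 9 days (log2(mean FPKM + 1), horizontal axis) for the 24787 tested genes, with the 76 called genes higher in DCD in red, the 40 lower in blue, and the fold thresholds as dashed lines. Most called genes lie at low levels, and the 17 grey points beyond the dashed lines missed the p threshold.

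With an adjusted p below 0.05, limma kept 13 genes, 0.0524% of those tested, of which 12 were higher and 1 was lower in heterografts. The 12 higher genes were expressed at modest levels. Their FPKM lay between 1.36 and 10.5 in the DCD libraries and reached at most 2.14 in an SCD library, and 4 of them were at 0 in all 3 SCD libraries. The mean in SCD was below 1 for 11 of the 12. Most of the 12, these 4 among them, had every SCD library below an FPKM of 1. Those genes passed the filter only through DCD. That favors a call, so their adjusted p values are a description. The count of 13 was sensitive to the model and to single libraries. It was 3 with the replicate number as a block on all days, 9 with the block on the 9-day libraries alone, and 0 with only the 6 libraries at 9 days or with voom. Leaving out 1 library gave 3 (SCD replicate 1), 6 (SCD replicate 2), 11 (SCD replicate 3), 2 (DCD replicate 1), 1 (DCD replicate 2), and 0 (DCD replicate 3). At an unadjusted p below 0.05 limma had 1384 of the 24787 tested genes and voom 1345. Without any difference a share of about 0.05 would pass that threshold, so these counts are not read as changed genes.

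The files do not pair the other identifiers with names. Only the 2 called genes in each direction with the smallest p whose libraries did not overlap are therefore identified. Pbr004283.1 had an FPKM of 8.12, 2.39, and 4.02 in DCD and of 0.185, 0.0952, and 0 in SCD. SCD replicate 3 had none, and over all libraries there were 135 reads in DCD and 3 in SCD, a ratio of 51.3 (95% counting interval 17.2 to 252). Its log2 fold change was 2.30 (SE 0.27, limma adjusted p = 0.00117). Pbr005925.1 had an FPKM of 3.70, 7.81, and 5.14 in DCD and 0 in each SCD library. Against a floor of 3 reads over the 3 SCD libraries, its 28 reads in DCD gave a ratio of 10.6. Counting error in the DCD reads is not included in that ratio. The limma adjusted p of the gene was 0.00174. Both genes passed the filter only through DCD, so their calls and p values are a description.

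Among the 40 lower genes, Pbr020308.1 had an FPKM of 0.972, 1.10, and 0.721 in DCD and of 2.94, 3.95, and 4.38 in SCD. Pbr038378.1 had 5.99, 3.11, and 2.63 in DCD and 11.7, 10.4, and 9.13 in SCD. Neither overlapped between the graft types, which the choice of these genes required. Their log2 fold changes were -1.29 and -1.27, with limma adjusted p values of 0.221 and 0.245. The lower gene that did pass the adjusted threshold was Pbr022871.1, which was singled out after its values were seen. It had 6.65, 7.73, and 8.47 in DCD and 16.1, 13.4, and 14.9 in SCD, with little spread within either group. Its log2 fold change of -0.88 (limma adjusted p = 0.00525) was short of the fold threshold. With the replicate number as a block its adjusted p was 0.0900 on all days and 0.0109 on the 9-day libraries alone.

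The called genes were followed at 1, 5, and 30 DAG, which were measured in other libraries. The fit used 1 estimate of the spread per gene over all 24 libraries, so calls on different days are not independent. Genes higher in DCD were often higher in heterografts on the other days too. Of the 76, 38 (50%) were also called as higher at 1 DAG, in DSS vs. SSS, whereas 2.63% of all tested genes were. At 5 DAG, in DCF vs. SCF, the number was 26 (34.2%, against 0.815% of tested genes), and at 30 DAG, in DVC vs. SVC, it was 27 (35.5%, against 0.424%). As shares of the higher genes of those days, these were 5.84%, 12.9%, and 25.7%. A call in the opposite direction was found for 3, 1, and 2 of the 76 genes on these days. Of all tested genes, 1.65%, 0.577%, and 0.0888% were called as lower.

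A smaller share of the genes lower in DCD was also called in the same direction on another day. Of the 40, 5 (12.5%) were also called as lower at 1 DAG, against 1.65% of tested genes. At 5 DAG the number was 1 (2.5%, against 0.577%), and at 30 DAG it was 0 (against 0.0888%). A call as higher in heterografts was found for 2, 8, and 1 of the 40 on these days. Of all tested genes, 2.63%, 0.815%, and 0.424% were called as higher. The median log2 fold change of the 40 genes was -1.14 at 9 DAG, the day they were chosen on. It was 0.11, 0.12, and -0.01 at 1, 5, and 30 DAG. That of the higher genes was 1.25 at 9 DAG and 0.97, 0.48, and 0.47 on those days, and that of all tested genes was 0.06, -0.03, and 0.01. The 47 DEGs called in the same direction on at least 1 other day became 31 without DCD replicate 2 and 24 without DCD replicate 3.

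**Figure D4:**
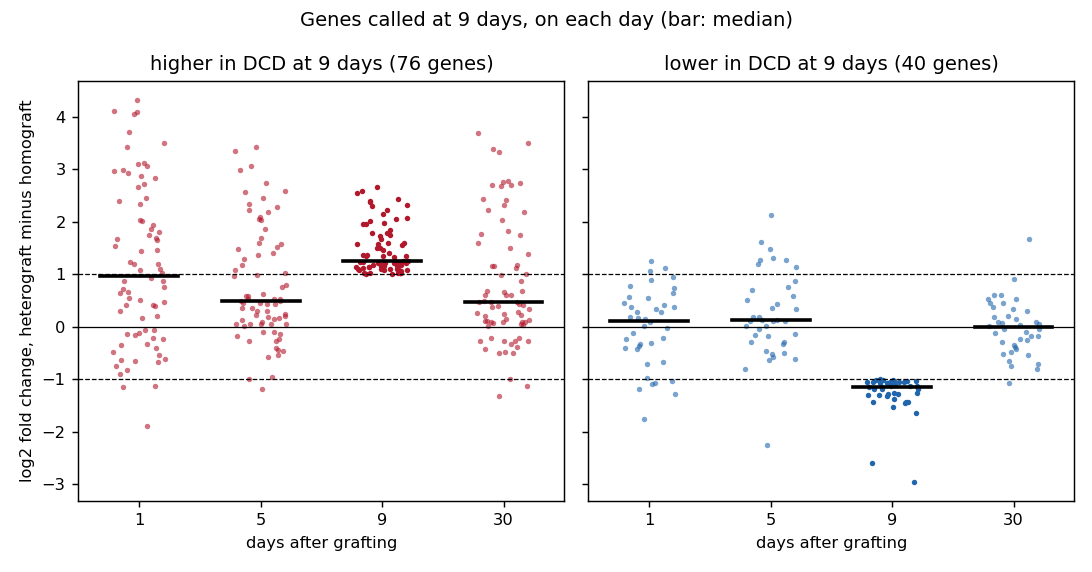
Log2 fold change of heterografts minus homografts (vertical axis) at 1, 5, 9, and 30 days after grafting for the 76 genes called as higher (left) and the 40 called as lower (right) at 9 days, with 1 point per gene, the median as a bar, and the fold thresholds as dashed lines. The medians of the higher genes were 0.97, 0.48, 1.25, and 0.47 over the 4 days, and those of the lower genes 0.11, 0.12, -1.14, and -0.01.

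Among the 76 higher genes, 22 were called as higher on all 4 days, and 31 were called at 9 DAG and in neither direction on the other days. The medians of their mean FPKM were 12.8 in DSS against 0.335 in SSS, 7.26 in DCF against 0.321 in SCF, 5.46 in DCD against 0.315 in SCD, and 9.09 in DVC against 0.410 in SVC. They included PbBglu13, Pbr004283.1, and Pbr005925.1, and 11 of the 12 higher genes with an adjusted p below 0.05. The mean in SCD was below 1 for 17 of the 22, and the highest mean there was 4.65. RNA specific to the QAUP-1 partner and a response to the joining of unlike partners cannot be told apart here.

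For the 31 genes called only at 9 DAG, the medians were 4.13 in DSS against 4.11 in SSS, 4.13 in DCF against 3.99 in SCF, 8.24 in DCD against 2.21 in SCD, and 5.07 in DVC against 4.77 in SVC. On these medians DCD was the highest condition and SCD the lowest, as the choice of the genes at 9 DAG favors. A mean below 1 in SCD was found for 8 of them. Of the 40 lower genes, 28 were called at 9 DAG and in neither direction on the other days.

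**Figure D5:**
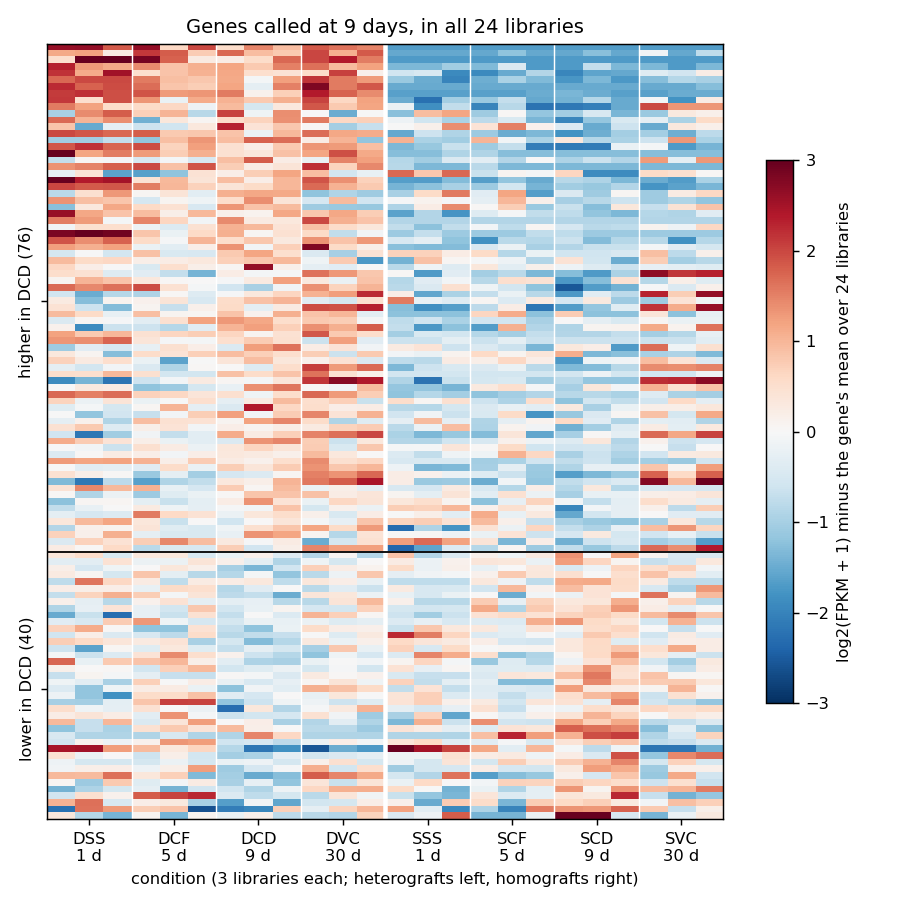
Level of the 76 higher and 40 lower genes (rows) in all 24 libraries (columns, heterografts left and homografts right, days in order), as log2(FPKM + 1) minus the mean of each gene, with colors ending at 3 and -3. The upper rows hold the genes with the highest fold change in DCD, most of which are high in heterografts and low in homografts on all 4 days, whereas the lower block stands out in SCD.

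Whether the difference between graft types changed between neighboring days was tested as an interaction. Between 5 and 9 DAG, 13 genes (0.0524% of tested genes) passed a limma adjusted p below 0.05. For all 13 the difference was positive at 5 DAG and negative at 9 DAG. Of these, 5 were called as higher at 5 DAG and 2 as lower at 9 DAG. An example is Pbr020308.1, which had 2.27, 6.51, and 6.14 FPKM in DCF and 1.36, 1.90, and 1.17 in SCF at 5 DAG, so that the heterografts were above the homografts at 5 DAG and below them at 9 DAG. Its log2 fold change was 1.19 at 5 DAG and -1.29 at 9 DAG, and the change was -2.48 (limma adjusted p = 0.0330). The count was 298 without DCD replicate 1. It was 0 with the replicate number as a block, with voom, and when SCD replicate 1 or 3 or DCD replicate 2 or 3 was left out. Between 9 and 30 DAG, 0 genes passed in limma, with 1195 of 24787 at an unadjusted p below 0.05, and voom gave 0 and 1187. A share of about 0.05 would pass that threshold without any difference.

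Over all 42812 genes in the files, 71 were above 0 in every DCD library and at 0 in every SCD library at 9 DAG. The reverse held for 40 genes. Few reads stood behind them, with a median of 7 reads over the 3 DCD libraries for the 71 genes and of 5 reads over the 3 SCD libraries for the 40. Of the 71 genes, 19 were at 0 in all 12 homograft libraries and 24 were detected in all 12 heterograft libraries. Of the 40 genes, 3 were at 0 in all 12 heterograft libraries and 0 were detected in all 12 homograft libraries. Only 7 of the 71 passed the filter, with 15 to 73 reads in DCD. A gene at 0 in SCD passes only with an FPKM of 1 or more in each DCD library. That alone sets its log2 fold change at 1 or more. The calls and adjusted p values of such genes are a description only. Against a floor of 3 reads over the 3 SCD libraries, the ratios of the 7 genes ran from 5.70 to 27.7. Counting error in the DCD reads is not included in them. None of the 40 passed the filter. At these depths a gene with a few reads in one graft type and 0 in the other cannot be called absent there. Leaving out any 1 library can only raise both counts, since fewer libraries then have to meet the rule. They rose to between 133 and 177 genes detected in heterografts alone and between 94 and 127 detected in homografts alone.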

How the data were processed

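Graft unions were sequenced in 24 libraries, 3 for each of 8 conditions. The authors deposited FPKM values, which they made from HTSeq read counts after trimming with Cutadapt and alignment with HISAT2 to the scaffold genome of P. bretschneideri. Division by the FPKM worth of a read gave whole reads for all 32966 genes seen in 4 or more libraries (100%, tolerance 0.02 reads). The study called DEGs with DESeq and did not state an adjustment. Here limma 3.58.1 in R 4.3.3 was fitted to log2(FPKM + 1) with a mean-variance trend and 1 mean per condition over the 24 libraries (residual degrees of freedom 16, prior 3.45). A DEG needed a log2 fold change beyond 1 in either direction and an unadjusted p below 0.05. Benjamini-Hochberg adjustment covered all 24787 tested genes. All tests were two-sided. With 3 libraries in each group the smallest exact permutation p is 0.1, so none is given. Fold changes on this scale understate those of low genes. The methods name the 3 replicates of a condition as biological, and no source says what a replicate number shares between graft types.

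At 9 DAG, deviations from the group mean correlated between libraries of the same number at 0.191, 0.151, and 0.204. They correlated negatively between all others, which is tied to the positive values because deviations sum to 0 within a group. The numbers were taken to pair the libraries at 9 DAG. On the other days they did not. At 30 DAG, heterograft replicate 1 and homograft replicate 2 also reached 0.204, and the 2 libraries numbered 3 reached 0.152. Alternatives were another pseudocount, filter, scaling, threshold, and fit, the replicate block, and leaving out each library. Counting intervals are exact at 95%. The named genes were those with a family label in the study and, since identifiers are not paired with names, the 2 called genes in each direction with the smallest p whose libraries did not overlap. Genes and lists were chosen with earlier results of these data known. The fit was tested on simulated data. Python 3.11.15 was used for counts and figures.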

Additional observations from a re-analysis of the deposited data

Results flagged for a closer look

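The difference between graft types at 9 DAG differed from that at 5 DAG for 13 genes, by a test of the interaction in limma. For Pbr020308.1 the change was -2.48 in the log2 fold change of heterografts minus homografts (limma adjusted p = 0.0330). Pbr022871.1 changed by -1.14 (limma adjusted p = 0.0330), with 12.6, 11.8, and 11.1 FPKM in DCF against 9.80, 9.59, and 9.61 in SCF at 5 DAG. At 9 DAG it had 6.65, 7.73, and 8.47 in DCD against 16.1, 13.4, and 14.9 in SCD. The groups were separate on both days and in opposite order. The mean was also lower in heterografts at 1 DAG (8.76 in DSS against 12.3 in SSS) and at 30 DAG (9.42 in DVC against 12.2 in SVC). With the replicate number as a block, 0 genes passed.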

How the results depend on the processing

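The main counts at 9 DAG were 116 DEGs, 76 higher and 40 lower in heterografts. They were 243, 160, and 83 with a pseudocount of 0.1, 250, 169, and 81 with voom on recovered reads, 36, 28, and 8 with a filter at an FPKM of 5, 12, 12, and 0 with an adjusted p, and 32, 28, and 4 with an absolute log2 fold change above 1.5. Without any 1 library they ranged from 92 to 202, from 49 to 148, and from 37 to 54. The 13 genes with an adjusted p below 0.05 were 2 with the filter at 5, 0 with only the 6 libraries, 0 with voom, and 0 to 11 without any 1 library. In the paired analysis they were 3 with the replicate block, 9 with the block at 9 DAG alone, and 0 with the block on the 6 libraries. The block on all days gave 114 DEGs, and of the named genes its only lost calls were those of AUX/IAA Pbr033492.1 (limma adjusted p = 0.850, unadjusted above 0.05) and, at the adjusted threshold, Pbr022871.1. The 13 genes of the interaction between 5 and 9 DAG were 8 without a filter, 2 with the filter at 5, 7 without the trend, 0 with the replicate block, 0 with voom, and 0 to 298 without any 1 library. The 47 DEGs shared with another day were 79 with a pseudocount of 0.1, 15 with the filter at 5, 85 with voom, and 24 to 63 without any 1 library. Genes detected in 1 graft type alone were 200 for heterografts and 160 for homografts when an FPKM below 0.1 in the other type counted as not detected. They were 133 to 177 and 94 to 127 without any 1 library. By construction, either change can only raise these counts. The share without overlap was 15.9% to 27.0% without any 1 library, since fewer libraries overlap less often by construction. AUX/IAA Pbr033492.1 was not called with a pseudocount of 0.1 (1.63), with median-ratio scaling (0.99), or with upper-quartile scaling (0.99). The log2 fold change of type-A ARR Pbr009193.1 was -0.012 with median-ratio and -0.020 with upper-quartile scaling, and -0.17 to 0.19 without any 1 library. Without any 1 library it was -0.24 to 1.13 for GH3 Pbr030688.1, -0.12 to 0.43 for AUX1 Pbr033508.2, and -0.043 to 0.74 for AHP Pbr015522.1. Except where the construction is named, the cause of these changes was not tested. The medians of 97.5 reads in DCD for the higher genes and of 12.5 in DCD against 51 in SCD for the lower genes limit the precision of low genes. The alternatives with the block on the 6 libraries or at 9 DAG alone were chosen after seeing the data.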
